A study of Rattus norvegicus with 6 samples.

Results

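Sox9, Runx2, Bmp2 and Spp1, genes known for directing or marking the formation of cartilage and bone, were followed in rat tenocytes under IL-1β. The 4 genes were taken by their Ensembl identifiers from a table of 19133 genes, and all 4 were present and passed the filter on low values. The genes were picked for their known roles and with earlier results of these data in view. Tenocytes, the resident cells of tendon, came from the Achilles tendons of Sprague–Dawley rats and were kept as cultures. The control group (n = 3 libraries) received complete medium, and the IL-1β group (n = 3 libraries) received the same medium containing 50 ng/mL of the proinflammatory cytokine IL-1β, for 24 h. Cells given verapamil are not analysed here.

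Tendon, cartilage and bone cells descend from related mesenchymal progenitors, and injured tendon is known to form cartilage-like and bone-like tissue in places. BMP2 is a secreted ligand of the TGF-β superfamily that binds type I and type II BMP receptors, acts through SMAD proteins and can induce ectopic bone. SOX9 is the transcription factor that drives the chondrocyte programme, and RUNX2 is the transcription factor that drives the osteoblast programme. SPP1 (osteopontin) is a secreted phosphoprotein of mineralised matrix that binds integrins and CD44, and it is also made by fibroblasts and macrophages.

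Values are FPKM, in which the fragments of a gene are divided by its length and by the depth of the library, so levels of different genes are per length. Low values fall on whole multiples of what 1 read is worth, and this was used to work back to the reads behind the values. For genes of few reads the recovered number can be too low, because the smallest length that fitted was taken. The libraries held between 36508281 and 43101781 such reads, and the depths of the groups overlapped. The labels do not say whether the 3 libraries of a group came from separate animals or cultures, so p-values measure the spread between these libraries, which may be technical. In bulk RNA of this kind, fewer expressing cells and less RNA per cell cannot be told apart. Markers of tenocytes and of other cell types were not checked, because apart from the 4 genes no identifier was paired with a symbol.

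IL-1β treated tenocytes had more Bmp2 RNA and, to a small degree, more Spp1 RNA, and less Sox9 RNA, whereas Runx2 did not pass the test. On the log2 scale, the change was 2.65 for Bmp2, 0.26 for Spp1, −0.74 for Sox9 and −0.12 for Runx2. An adjusted p under 0.05 in limma was reached by 3 of the 4 genes, where 38.4% of the 12408 tested genes reached it. By direction, 2 of the 4 were higher and 1 was lower, and among the tested genes the shares were 19.3% higher and 19.1% lower. The study's second threshold, an absolute log2 fold change over 1, was passed together with the first by Bmp2 only, 1 of the 4 genes against 8.69% of the tested genes (5.37% higher and 3.32% lower). The deposited values of the groups did not overlap for 3 of the 4 genes and for 52.0% of the tested genes. The median log2 fold change was 0.07 over the 4 genes and 0.00066 over all tested genes.

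**Figure D1:**
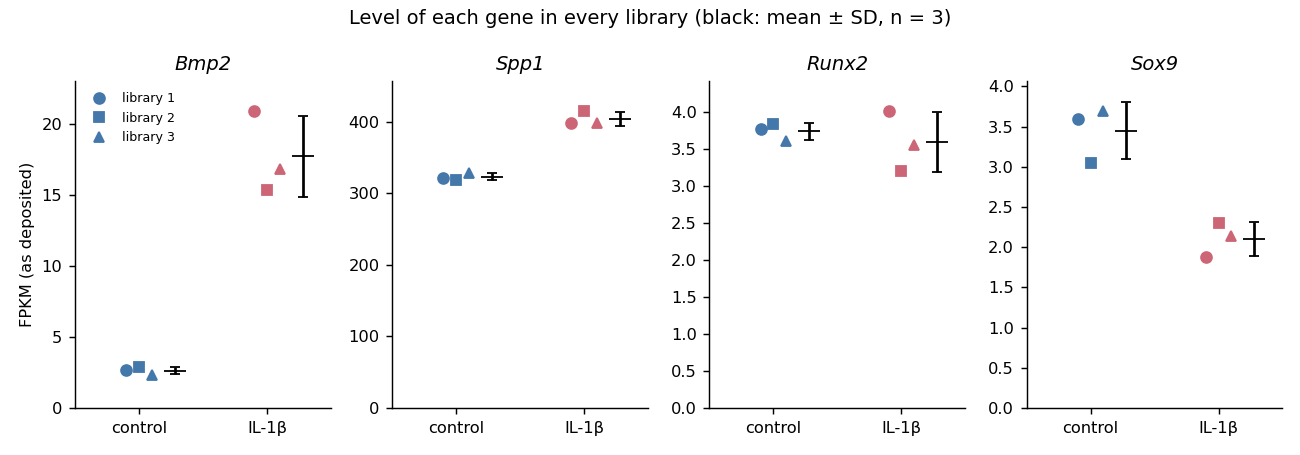
FPKM as deposited (vertical axes, starting at 0 and with a different range for each gene) in the 3 control and 3 IL-1β libraries, with the mean ± SD in black. All 3 IL-1β libraries lie above the controls for Bmp2 and Spp1 and below them for Sox9, and for Runx2 the IL-1β libraries lie on either side of the controls.

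Bmp2 (ENSRNOG00000021276), the ligand of the set, lies on chromosome 3 of the rat (GRCr8 assembly, 141264648 to 141275416). Its level was 2.68, 2.86 and 2.34 FPKM in control libraries 1 to 3, against 20.95, 15.4 and 16.9 FPKM in IL-1β libraries 1 to 3. The lowest IL-1β library was 12.5 FPKM above the highest control library. The means were 2.63 ± 0.26 and 17.7 ± 2.88 FPKM (SD, n = 3 each). The reads behind these values numbered 313 to 334 without IL-1β and 1983 to 2488 with it. The fitted change was 6.26-fold, with a 95% confidence interval of 5.02-fold to 7.80-fold (log2 fold change 2.65, standard error 0.13, adjusted p = 7.6e-06 in limma). Of all tested genes, 1.34% had a larger log2 rise, and Bmp2 ranked 167 among them.

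Among the IL-1β libraries, the level of Bmp2 had a coefficient of variation of 16.2%, where counting error alone for the mean number of reads is 2.13%. In the control group the coefficient of variation was 9.94% and the counting error 5.54%. IL-1β library 1 was the highest, and without it the log2 fold change was 2.51.

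Spp1 (ENSRNOG00000043451), a matrix protein gene and the most abundant of the 4, lies on chromosome 14 (GRCr8, 5613569 to 5620695). Its level was 322, 319 and 329 FPKM in control libraries 1 to 3, against 399, 416 and 398 FPKM in IL-1β libraries 1 to 3. The groups were 69.4 FPKM apart at their nearest points, and both were tight. The means were 324 ± 4.90 and 404 ± 9.86 FPKM (SD, n = 3 each), with coefficients of variation of 1.51% and 2.44%. After scaling between libraries, the change was 1.20-fold with a 95% confidence interval of 1.12-fold to 1.28-fold (log2 fold change 0.26, standard error 0.04, adjusted p = 0.0018 in limma). A change of this size was common, since 58.7% of the tested genes had a smaller absolute log2 fold change and the others a larger one. With the FPKM values as deposited the log2 fold change of Spp1 was 0.32, and with quantile normalization it was 0.22.

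In amount of RNA, the small relative rise of Spp1 was the larger of the increases. The mean FPKM difference between the groups was 80.8 for Spp1 and 15.1 for Bmp2, both per length and as deposited. Spp1 took 493 ± 7.46 of every 1000000 reads without IL-1β and 616 ± 15.0 with it (SD, n = 3 each). Bmp2 took 8.41 ± 0.84 and 56.8 ± 9.23 on the same scale.

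Runx2 (ENSRNOG00000020193), the osteoblast transcription factor gene, lies on chromosome 9 (GRCr8, 23661278 to 23990248). Its level was 3.78, 3.84 and 3.61 FPKM in control libraries 1 to 3, against 4.02, 3.21 and 3.55 FPKM in IL-1β libraries 1 to 3. The IL-1β libraries lay both above and below the control libraries. The means were 3.74 ± 0.12 and 3.59 ± 0.41 FPKM (SD, n = 3 each), from between 738 and 853 reads a library. The log2 fold change was −0.12 (standard error 0.10, adjusted p = 0.42 in limma), with a 95% confidence interval of −0.36 to 0.13. On the linear scale the interval runs from 0.777-fold to 1.09-fold, and these data do not exclude a change within that range. In the control group the coefficient of variation was 3.11% and the counting error 3.49%. In the IL-1β group the coefficient of variation was 11.3% and the counting error 3.56%.

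Sox9 (ENSRNOG00000002607), the chondrocyte transcription factor gene, lies on chromosome 10 (GRCr8, 98305744 to 98311250). Its level was 3.60, 3.04 and 3.70 FPKM in control libraries 1 to 3, against 1.88, 2.30 and 2.14 FPKM in IL-1β libraries 1 to 3. Every IL-1β library was below every control library, with 0.742 FPKM between the nearest. The means were 3.45 ± 0.35 and 2.11 ± 0.21 FPKM (SD, n = 3 each). These values rest on 381 to 529 reads in the control libraries and 239 to 340 in the IL-1β libraries. The fitted level under IL-1β was 0.598 of the control level, with a 95% confidence interval of 0.495 to 0.724 (log2 fold change −0.74, standard error 0.12, adjusted p = 0.0021 in limma). The fall did not reach the study's fold threshold, and 6.13% of the tested genes fell further. The coefficients of variation were 10.3% (control) and 10.1% (IL-1β), against counting errors of 4.65% and 5.95%.

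For a single gene an exact permutation test of 3 against 3 libraries cannot go below p = 0.10 (two-sided). It gave this smallest value for Bmp2, Spp1 and Sox9 and 0.40 for Runx2. The calls above therefore rest on the model of limma, which combines the spread of each gene with that of all tested genes.

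**Figure D2:**
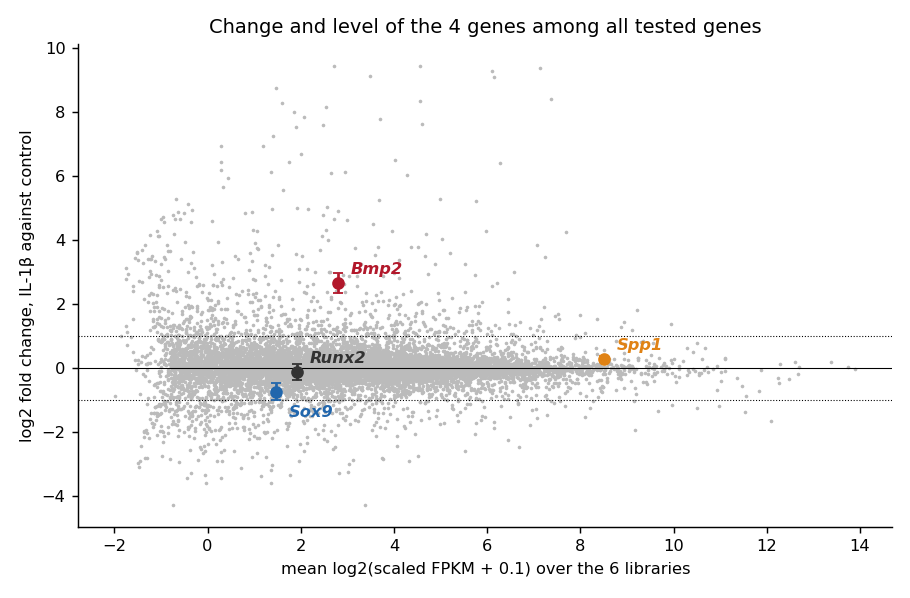
Log2 fold change of IL-1β against control (vertical axis) by the mean log2(scaled FPKM + 0.1) over the 6 libraries (horizontal axis) for the 12408 tested genes in grey and the 4 genes in colour with 95% confidence intervals. Dotted lines mark a log2 fold change of 1 and −1, and only Bmp2 (2.65) lies beyond them among the 4.

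The order of the levels differed between the groups. In the control group Spp1 stood highest, followed by Runx2, Sox9 and Bmp2. Runx2 and Sox9 were not separated there, since Sox9 reached 3.70 FPKM in library 3, above the 3.61 FPKM of Runx2 in the same library. Bmp2 was lowest in each control library, with its highest value (2.86 FPKM) below the lowest of Sox9 (3.04 FPKM). In the IL-1β group the order was Spp1, Bmp2, Runx2 and Sox9, and no neighbours overlapped. Bmp2 had thus passed from the lowest to the second place, with 50.5% of all 19133 genes at a lower mean FPKM without IL-1β and 79.9% with it. For Sox9 these shares were 54.0% and 47.0%, for Runx2 55.2% and 53.5%, and for Spp1 99.0% and 99.1%.

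Ratios of one gene to another within a library do not depend on a single scaling factor per library, apart from the pseudocount, and were used to set the changes of the 4 genes against each other. The shift of a log2 ratio equals the log2 fold change of one gene minus that of the other, so it is no independent result. Of the 6 ratios, that of Bmp2 to Sox9, the gene that rose most against the gene that fell most, therefore moved most. It was −0.41, −0.09 and −0.64 (log2) in control libraries 1 to 3, against 3.41, 2.69 and 2.92 in IL-1β libraries 1 to 3. Its mean rose from −0.38 ± 0.28 to 3.01 ± 0.37 (SD, n = 3 each), a difference of 3.39 with a standard error of 0.27.

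The ratio of Runx2 to Sox9, the osteoblast factor against the chondrocyte factor, was 0.07, 0.33 and −0.03 (log2) in the control libraries and 1.06, 0.46 and 0.71 in the IL-1β libraries. The groups lay next to each other without overlap, and the difference of their means was 0.62 with a standard error of 0.20. The ratio of Spp1 to Runx2 differed by 0.38 (standard error 0.11) and that of Spp1 to Sox9 by 1.00 (standard error 0.10). The ratio of Bmp2 to Spp1 differed by 2.38 (standard error 0.17).

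The ratio of Bmp2 to Runx2 was −0.48, −0.41 and −0.61 (log2) in control libraries 1 to 3, against 2.35, 2.23 and 2.21 in IL-1β libraries 1 to 3. Its SD of 0.08 in the IL-1β group was below the SD of 0.24 of the log2 values of Bmp2 and of 0.17 of Runx2 there. In the control group its SD of 0.10 was below the 0.15 of Bmp2 but above the 0.05 of Runx2. This was seen after the values were known and was not tested. IL-1β library 1 was highest and library 2 lowest in both genes.

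The groups did not overlap in any of the 6 ratios, and each exact permutation test (two-sided) gave p = 0.10, the smallest possible, and 0.10 after Benjamini-Hochberg adjustment over the 6. Such separation was common across the table, since the groups did not overlap in the ratio to Bmp2 for 98.2% of the other 12407 tested genes. This share was 86.9% for ratios to Sox9, 67.2% for ratios to Spp1 and 38.3% for ratios to Runx2.

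**Figure D3:**
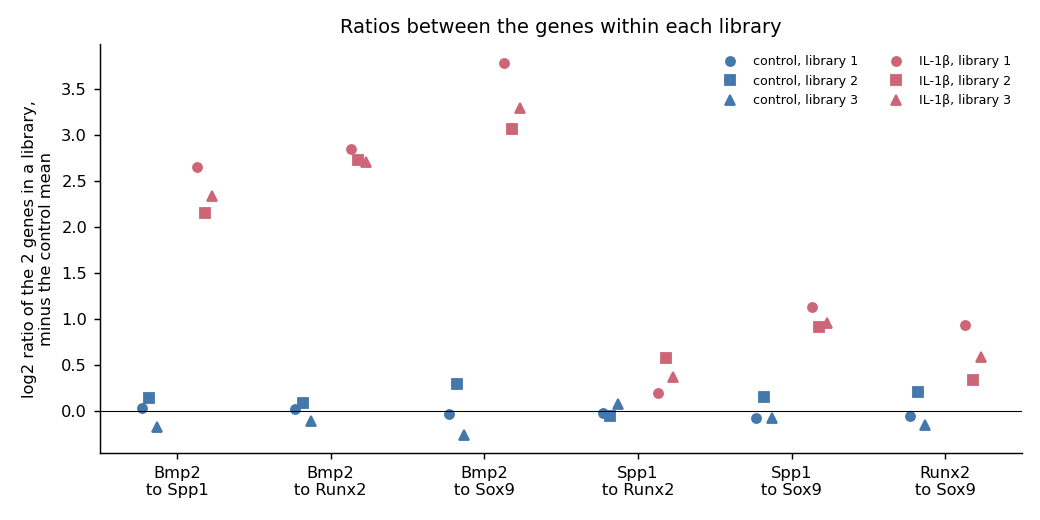
Log2 ratio of each pair of genes within a library, minus the mean of the control libraries (vertical axis), for the 6 pairs (horizontal axis), with 1 point a library. The shift is largest for Bmp2 to Sox9 (3.39) and smallest for Spp1 to Runx2 (0.38), and the points of the groups do not overlap in any pair.

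RUNX2 is known to bind regulatory DNA of Spp1 and of its own gene, so the bases before their start sites are shown. RefSeq promoter windows (GRCr8) were at hand for Spp1 and Runx2, and those of Sox9 and Bmp2 were not analysed here. The 250 bases before the listed start are printed on the strand of the gene. The Spp1 window is chr14:5619805-5620054 on the minus strand, and its start site lies inside the longest RefSeq span of the gene. Runx2 has 2 listed starts 78182 bases apart, and the window of the first is chr9:23664808-23665057 on the plus strand, also inside the span. Capitals mark matches on either strand to the RUNX core TGTGGT or its variant TGCGGT and to the SOX core ACAAT.
Spp1: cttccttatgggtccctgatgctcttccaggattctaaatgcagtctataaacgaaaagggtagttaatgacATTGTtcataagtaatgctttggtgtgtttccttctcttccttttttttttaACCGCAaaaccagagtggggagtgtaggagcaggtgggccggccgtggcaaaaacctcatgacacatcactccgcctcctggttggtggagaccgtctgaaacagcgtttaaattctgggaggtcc
Runx2: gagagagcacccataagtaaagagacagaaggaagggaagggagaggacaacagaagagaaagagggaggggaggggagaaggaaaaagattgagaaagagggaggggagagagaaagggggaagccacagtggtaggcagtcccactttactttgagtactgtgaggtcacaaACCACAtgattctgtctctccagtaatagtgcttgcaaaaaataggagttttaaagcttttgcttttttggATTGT

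The Spp1 window holds the RUNX variant 126 bases before the start, and 5.02% of the 33469 RefSeq windows of this length hold it. The first Runx2 window holds the RUNX core 76 bases before the start, a core found in 14.5% of the windows. The SOX core, found in 30.0% of the windows, lies 178 bases before the Spp1 start and 5 bases before the first Runx2 start. The AP-1 motif TGANTCA (6.34% of the windows) and the NF-κB motif (3.54%) were also searched on both strands, and neither Spp1 nor Runx2 holds their letters in these windows. The second Runx2 window holds none of the 5 motifs. These matches are of letters only, in windows that cover a small part of the regulatory DNA.

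Each gene was also set beside the tested gene whose pattern over the 6 libraries was most like it, by the root mean square distance between mean-centred log2 values. For Bmp2 this was ENSRNOG00000011913, at a distance of 0.088, which rose from 1.80 ± 0.11 to 12.1 ± 2.05 FPKM (SD, n = 3 each). For Spp1 it was ENSRNOG00000018279, at 0.015, which rose from 32.7 ± 0.51 to 41.4 ± 0.88 FPKM. For Sox9 it was ENSRNOG00000014548, at 0.041, which fell from 69.0 ± 4.70 to 43.8 ± 3.86 FPKM. For Runx2 the smallest distance was 0.021. The number of genes within 0.1 was 2 for Bmp2, 69 for Sox9, 749 for Runx2 and 1359 for Spp1. This measure depends on both the size of the change and the scatter between libraries, and counts more genes where both are small.

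**Figure D4:**
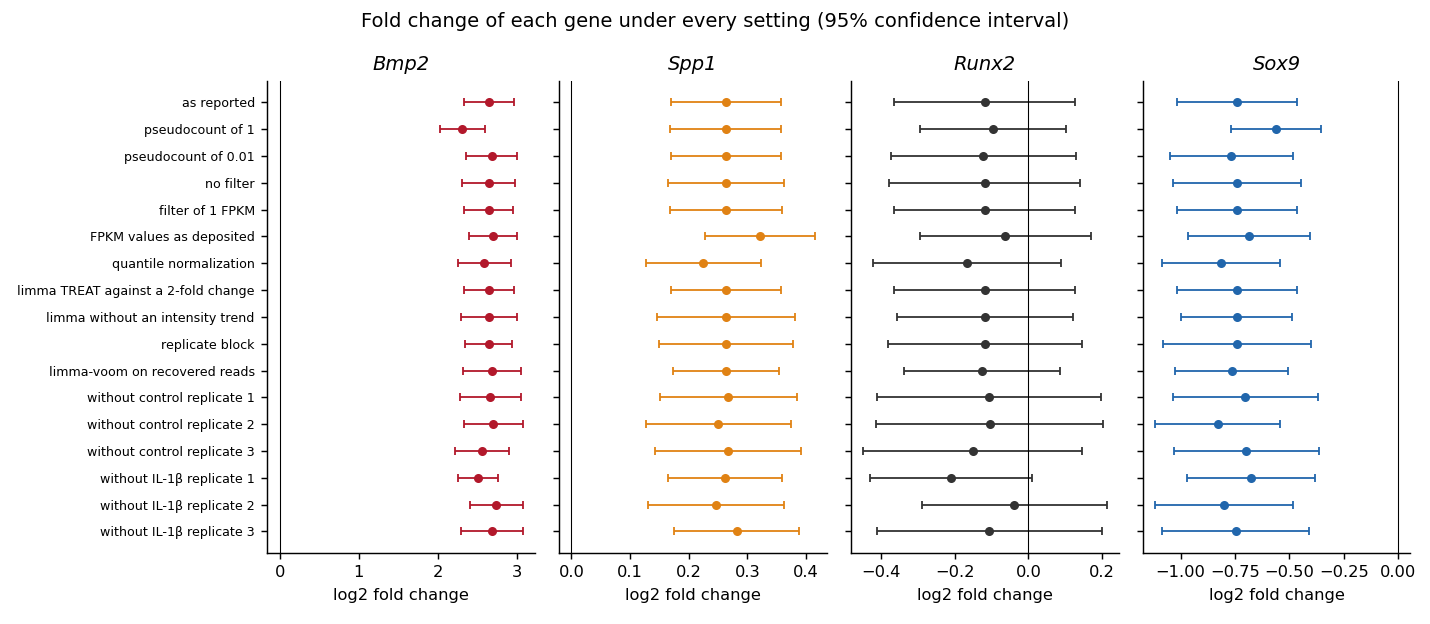
Log2 fold change of IL-1β against control with its 95% confidence interval (horizontal axes, a different range for each gene) under the reported setting and 16 alternatives (vertical axis). The intervals of Bmp2 and Spp1 lie above 0 and those of Sox9 below 0 at each setting, and those of Runx2 cover 0.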

How the data were processed

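The authors sequenced 6 paired-end poly(A) libraries of rat tenocytes (3 control, 3 IL-1β). They deposited 1 FPKM value per gene and library. The submitters' processing notes name HISAT2 and featureCounts, and the genome build, annotation and strand setting are not given in the sources used here, so overlapping or near-identical genes could share reads. Groups and replicate numbers came from the labels.

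Reads were recovered from the FPKM steps (tolerance 0.02 read) in numpy 2.4.6 and pandas 2.3.3 under Python 3.11.15. They summed to between 99.69% and 99.71% of the depth divisor, which was itself inferred from the same FPKM values. Replicates of a group differed by more than sampling noise in each pair. The mean chi-square per gene was 27.4 and 26.2 for IL-1β library 1 against IL-1β libraries 2 and 3, and 11.4 to 15.2 for the other pairs. The deposited FPKM values were divided by size factors (median of ratios, 0.969 to 1.032). These were 0.969 to 0.988 in the control libraries and 1.004 to 1.032 in the IL-1β libraries. Scaling therefore lowered the IL-1β values relative to the control values. The scaled values were turned into log2(FPKM + 0.1), a scale on which changes of low genes come out too small. The 12408 genes that reached 0.5 FPKM in 3 or more libraries were fitted in limma 3.58.1 (R 4.3.3) with an intensity trend and no block. Benjamini-Hochberg adjustment ran over all of them. The study's DESeq2 takes counts and was not run on FPKM. Procedures were tested on simulated data. Alternatives were other pseudocounts (1 and 0.01), filters (none and 1 FPKM) and scalings (as deposited, quantile), TREAT, no trend, a replicate block, limma-voom on the recovered reads and each library left out. Exact permutation tests used scipy 1.17.1, and figures matplotlib 3.10.9.

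The 4 genes and all lists were chosen with earlier results of these data known. Named genes were the 4 and, for each, the most alike tested gene, of which at most 2 that rose and 2 that fell are given by identifier. The reference table lists 0 Ensembl identifiers, so the planned lists of cartilage, bone, BMP, tendon and fat genes, osteopontin receptors and cell type markers were not used, and the 4 symbols are those given with the identifiers. Counting errors cover no PCR duplication, and the intervals cover it only as far as it adds to the spread between libraries.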

Additional observations from a re-analysis of the deposited data

How the results depend on the processing

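The 4 genes kept their direction under each of the 16 alternatives, and Bmp2 stayed past both thresholds in each, with log2 fold changes of 2.31 to 2.74. Spp1 (0.22 to 0.32) and Sox9 (−0.83 to −0.56) stayed under an adjusted p of 0.05 except in TREAT, limma's test against a change of 2-fold, where both had an adjusted p of 1 at log2 fold changes of 0.26 and −0.74, since that test calls no change under 2-fold. Runx2 lay between −0.21 and −0.04 and passed in none, with adjusted p-values from 0.12 to 1. TREAT called 520 genes (358 higher, 162 lower) in place of 1078 (666 and 412), and a pseudocount of 1 called 697, of which 231 were lower. A pseudocount of 1 shrinks changes of low genes and moved the shift of the log2 ratio to 2.05 for Bmp2 to Spp1, 2.41 for Bmp2 to Runx2, 2.87 for Bmp2 to Sox9 and 0.82 for Spp1 to Sox9.

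Leaving out 1 library at a time gave 1042 to 1111 called genes. The log2 fold changes were then 2.51 to 2.74 for Bmp2, 0.25 to 0.28 for Spp1, −0.21 to −0.04 for Runx2 and −0.83 to −0.68 for Sox9. The value for Runx2 nearest to 0 came without IL-1β library 2 and the farthest without IL-1β library 1. Same-numbered libraries deviated together at correlations of 0.094, 0.021 and 0.034, and differently numbered libraries at −0.087 to 0.061. All of these are small, so the numbers were not taken as pairs. With a replicate block 1080 genes were called, and the adjusted p was 0.00011 for Bmp2, 0.0092 for Spp1, 0.42 for Runx2 and 0.011 for Sox9, so no call of the 4 genes changed. Depth limited none of the 4 genes to near the smallest counts, since the lowest value rests on 239 reads.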

Other observations

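Within each group, the libraries fell in the opposite order for Sox9 and for Bmp2 and Runx2, a pattern seen after the values were known and not tested. In the control group, library 2 had the highest Bmp2 (2.86 FPKM) and Runx2 (3.84 FPKM) and the lowest Sox9 (3.04 FPKM), and library 3 had the lowest Bmp2 (2.34 FPKM) and Runx2 (3.61 FPKM) and the highest Sox9 (3.70 FPKM). In the IL-1β group, library 1 had the highest Bmp2 (20.95 FPKM) and Runx2 (4.02 FPKM) and the lowest Sox9 (1.88 FPKM), and library 2 had the lowest Bmp2 (15.4 FPKM) and Runx2 (3.21 FPKM) and the highest Sox9 (2.30 FPKM). Spp1 was highest in control library 3 (329 FPKM) and IL-1β library 2 (416 FPKM), the libraries with the highest Sox9 of their groups. IL-1β library 1 also differed most from the other libraries of its group over the genes compared. With 3 libraries a group, such an order is a description of these libraries only.

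The difference between same-numbered libraries, IL-1β minus control on the log2 scale, ran from 2.33 to 2.87 for Bmp2 and from 0.21 to 0.32 for Spp1. It ran from −0.95 to −0.45 for Sox9 and from −0.31 to 0.04 for Runx2. The libraries numbered 1 gave the largest rise of Bmp2 and the largest fall of Sox9, and those numbered 2 the smallest of each. Since the numbers were not taken as pairs, these differences are a description only.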
